A study of Mus musculus with 19 samples.

Results

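The copy number calls described here came from input DNA of SCC1 and SCC2, a pair of independent mouse skin squamous cell carcinomas of strain C57BL/6. The members were chosen by position alone: every listed region on the 19 autosomes, 148 in SCC1 and 141 in SCC2. These 289 regions made up all but the 5 chromosome X rows of the 294 rows in the table. The series held 19 samples of RNA, accessible chromatin, Smad2/3 binding and input DNA, and each tumour had 1 input sample. Input chromatin was prepared from 12000000 cultured cells per tumour. Both cultures were kept in medium with 50 uM calcium and received 5 ng/mL TGFβ1 for 1 h, so neither group was untreated. The oncogene or carcinogen behind the tumours, the passage of the cultures and any normal DNA reference were not given in the sources used here. With 1 library per tumour no spread between replicates was known, so differences between SCC1 and SCC2 were described and not tested. They compare these libraries only.

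A diploid cell carries a pair of each autosome, and tumour cells gain or lose whole chromosomes, arms or short segments as they divide. A gain raises the gene dose of every gene in the segment, and a short high-level gain (an amplification) often carries an oncogene. A loss leaves fewer copies and can uncover a mutated tumour suppressor. Squamous carcinoma of mouse skin is known for mutated Hras, mutated Trp53 and disturbed cell cycle control. Input DNA is the sheared genomic DNA kept aside in a chromatin immunoprecipitation, and its read density follows copy number. In the table each region carries a whole number of copies and a call of gain or loss, in steps of 100 kb. Positions with no row are called unlisted below. The read depth of the input libraries is unknown here, so no interval is attached to a copy number.

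Gains covered far more of the genome than losses in both tumours. In SCC1, 134 gains spanned 722 Mb, or 29.3% of the autosomes, and 14 losses spanned 92.2 Mb, or 3.75%. In SCC2, 123 gains spanned 702 Mb, or 28.5%, and 18 losses spanned 77.9 Mb, or 3.16%. The total extent was thus close between the tumours, although the positions were not the same. Every loss was called at 1 copy. Most gained sequence stood at 3 copies, with 544 Mb in SCC1 and 662 Mb in SCC2. The tumours differed more at 4 copies, which covered 165 Mb in SCC1 and 36.6 Mb in SCC2. At 5 or more copies there were 12.2 Mb in 20 regions of SCC1 and 2.8 Mb in 18 regions of SCC2. Of these high-level regions, 4 in SCC1 and 0 in SCC2 were 1 Mb long or longer. Regions that opened a chromosome were frequent, with 14 in SCC1 and 12 in SCC2, and the mouse assembly begins each chromosome with an unsequenced gap. Without them, gains spanned 492 Mb in SCC1 and 499 Mb in SCC2.

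The chromosomes with the widest calls were 10, 11, 14 and 19. SCC2 was gained over the whole of chromosome 10 (100% of 131 Mb) and the whole of chromosome 19 (100% of 61.4 Mb). SCC1 was gained over 66.9% of chromosome 10 and 40.4% of chromosome 19. On chromosome 11 the order was the other way, with 87.7% gained in SCC1 and 68.6% in SCC2. Chromosome 14 was the main site of loss in both tumours, with 59.0% lost in SCC1 and 25.0% in SCC2. The lost parts of chromosome 14 met over only 13.4 Mb. SCC1 alone was lost over 60.1 Mb, all of it in 1 region at chr14:58000001-118100000, and SCC2 alone over 17.8 Mb. Chromosome 13 was gained over 36.6% in SCC1 and 1.41% in SCC2. Chromosome 4 was gained over 34.6% in SCC1, against 9.53% gained and 10.7% lost in SCC2. Chromosome 8 showed a like contrast, with 21.7% gained in SCC1 and 10.6% lost in SCC2. Chromosome 2 was gained over 16.4% in SCC1 and 36.1% in SCC2, and chromosome 16 over 18.4% and 35.4%. The other chromosomes were closer: on 5, 7 and 17 the gained shares differed by under 2 percentage points.

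**Figure D1:**
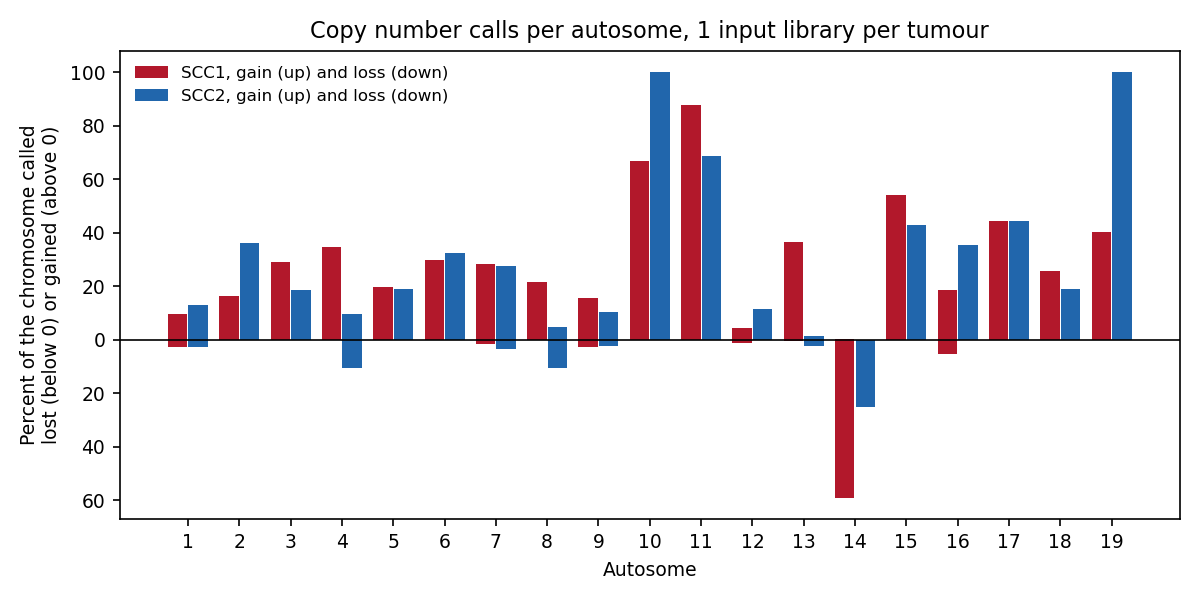
Percent of each autosome called gained (bars above 0) or lost (bars below 0) in SCC1 (red) and SCC2 (blue), 1 input library each, with no error bars because there were no replicates. SCC2 was gained over 100% of chromosomes 10 and 19, and chromosome 14 was lost over 59.0% in SCC1 and 25.0% in SCC2.

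At the same positions the tumours shared part of their calls. A call in either tumour covered 1053 Mb, and over 538 Mb, or 51.0% of it, the call was the same. This shared extent was 66.1% of what was called in SCC1 and 68.9% of what was called in SCC2. Of the sequence gained in either tumour 56.4% was gained in both, and of the sequence lost in either 16.4% was lost in both. Gains covered 29.3% of the autosomes in SCC1 and 28.5% in SCC2, and losses 3.75% and 3.16%. Wider calls meet more by extent alone, so these shares do not rank gains against losses. Gains found in SCC1 alone covered 206 Mb, and gains found in SCC2 alone covered 188 Mb. The tumours come from the same strain, and no normal DNA of that strain was analysed here.

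Where both tumours carried a call, SCC1 had the higher copy number more often. Mean copies over these 540 Mb were 3.29 in SCC1 and 3.00 in SCC2, a difference of 0.287. Copies were equal over 365 Mb (67.6%), higher in SCC1 over 153 Mb (28.4%) and higher in SCC2 over 21.6 Mb (4.00%). By length, most of the sequence with more copies in SCC1 differed by exactly 1 copy, over 140.3 Mb. Larger steps on the rest weighed more per Mb in the mean. Chromosome 11 held 74.6 Mb (48.7%) of the sequence with more copies in SCC1: there SCC1 averaged 3.99 copies and SCC2 3.00. Without chromosome 11 the mean difference was 0.163. With unlisted positions set to 2 copies it was 0.0668, averaged over all autosomes, of which 57.2% was called in neither tumour. Chromosome 19 went the other way, at a mean of 3.00 in SCC1 and 3.56 in SCC2 over 24.8 Mb, and it held 13.8 Mb of the sequence with more copies in SCC2. Over the positions called in both, the mean was higher in SCC1 on 12 chromosomes, higher in SCC2 on 3 and equal on 4. With unlisted positions at 2 copies it was higher in SCC1 on 10 and in SCC2 on 9.

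**Figure D2:**
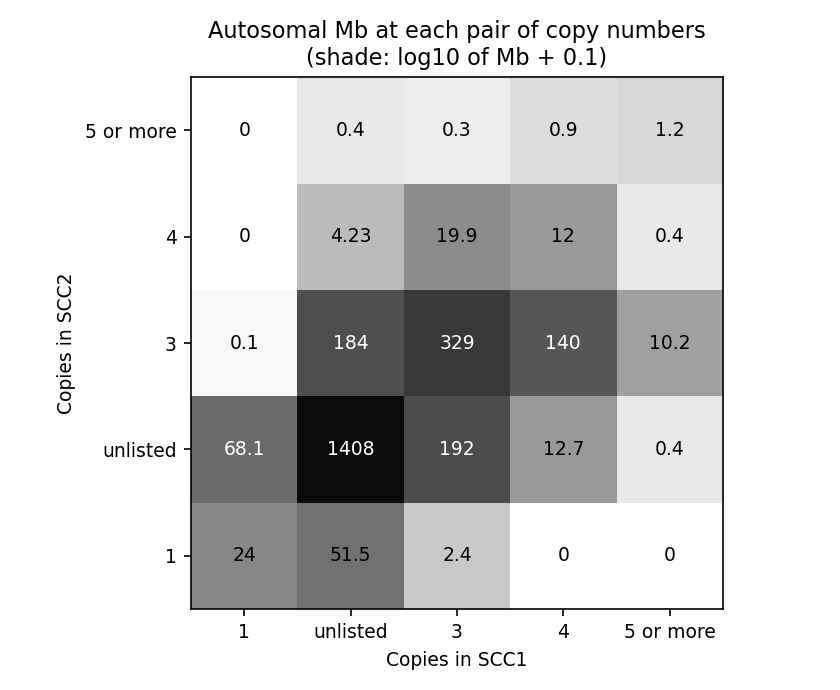
Autosomal Mb at each pair of copy numbers, with copies in SCC1 on the horizontal axis and copies in SCC2 on the vertical axis; shade is the log10 of Mb. The cell with 4 copies in SCC1 and 3 in SCC2 holds 140 Mb, against 19.9 Mb for 3 copies in SCC1 and 4 in SCC2.

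Long and short regions were compared apart. A region was counted as shared when at least 50% of its length had the same call in the other tumour. Among regions of 1 Mb or more, 83 of 110 in SCC1 (75.5%) and 65 of 99 in SCC2 (65.7%) were shared. Of the long losses, 9 of 13 in SCC1 (69.2%) and 4 of 15 in SCC2 (26.7%) were shared. Such counts depend on how a stretch is cut: the 18.4 Mb loss of SCC2 on chromosome 14 met several separate losses of SCC1. Among shorter regions, 24 of 38 in SCC1 (63.2%) and 29 of 42 in SCC2 (69.0%) were shared. All but 4 of the 80 short regions were gains, and none of the 4 short losses was shared. Of the region edges inside chromosomes, 100 of 238 in SCC1 (42.0%) and 100 of 220 in SCC2 (45.5%) lay within 50 kb of an edge in the other tumour. There were 39 regions with the same start and end in both tumours, of which 23 were 1 Mb or longer. Of those 23, 16 had equal copies and 7 had more in SCC1. Of the 16 shorter ones, 5 had equal copies, 6 had more in SCC1 and 5 had more in SCC2. A shared edge on a 100 kb grid places a change between the same windows and does not show that the break is the same.

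The highest copy numbers of both tumours stood in the same narrow windows. The window chr9:35300001-35400000 was called at 98 copies in SCC1 and 115 in SCC2, and no protein-coding gene of the annotation overlaps it. The window chr6:103600001-103700000, inside the neural adhesion gene Chl1, was called at 31 and 43 copies. The windows chr12:67000001-67100000 in Mdga2 and chr12:74800001-74900000 in Kcnh5 were at 13 and 14 copies, and the values were equal in both tumours. There were 14 such regions of 100 kb in SCC1 and 16 in SCC2, all gains. All 14 in SCC1 and 14 of the 16 in SCC2 were also gained in the other tumour. The 2 regions of SCC2 with no call in SCC1 held the Ugt1a cluster of glucuronidation enzymes on chromosome 1 and the nuclear receptor coactivator Ncoa3 on chromosome 2, each at 5 copies. In the authors' deposited table no region of 100 kb had both p-values under 0.05, and the Wilcoxon p ranged from 0.0833 to 0.132 in SCC1 and from 0.0833 to 0.0876 in SCC2. The lowest value was shared by windows at 6 copies and at 98 in SCC1, so the p does not rank single windows, the one at Ccne1 included. Among regions of 1 Mb or more, 108 of 110 in SCC1 and 98 of 99 in SCC2 had both of the authors' p-values under 0.05.

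Long high-level gains occurred in SCC1 only among the listed regions, and all 4 were on chromosomes 10 and 11. The segment chr10:116800001-118600000 was called at 11 copies in SCC1, and the same positions were at 3 copies in SCC2, within the gain of the whole chromosome. It overlapped 20 protein-coding genes, among them Mdm2, which encodes the ubiquitin ligase that marks p53 for degradation. It also held Frs2, an adaptor of fibroblast growth factor receptors, Yeats4, a reader of acetylated histones, Cct2, a chaperonin subunit, Rap1b, a small GTPase, and the cytokine genes Ifng and Il22. A second segment at chr10:107200001-108400000 was called at 8 copies in SCC1 and 3 in SCC2, and it overlapped 8 genes. These included the muscle regulators Myf5 and Myf6, the phosphatase gene Ptprq, the myosin phosphatase subunit Ppp1r12a and the apoptosis regulator Pawr. The other pair lay on chromosome 11 at 5 copies, at chr11:26200001-31600000 and chr11:115400001-116600000. SCC2 was at 3 copies over the first of these.

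The listed cancer genes followed the rest of the genome in how often they were called. Each of 141 genes was placed by its midpoint. In SCC1 60 (42.6%) were gained, against 44.5% of all 20665 autosomal protein-coding genes, and 3 (2.13%) were lost, against 1.56%. In SCC2 58 (41.1%) were gained against 42.9%, and 4 (2.84%) were lost against 2.20%. Gains in both tumours covered 49 (34.8%) against 35.3%. More copies in SCC1 were found for 30 (21.3%) against 22.0%, and more in SCC2 for 15 (10.6%) against 10.7%. A difference of 2 or more copies was found for 3 (2.13%) against 1.68%, with unlisted counted as 2. These shares were close to the background, so the single genes below are given for their values and not as a trend of the list. The separate lists, of 10 to 22 genes, varied more, and this was not tested. In SCC1 the gained share ran from 16.7% (TGF-β pathway) to 75.0% (Wnt, Hedgehog and Hippo). In SCC2 it ran from 16.7% (TGF-β pathway) to 61.5% (chromatin regulators).

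Mdm2 and Hras were among the genes with a difference of 2 or more copies. Mdm2, at chr10:117688875-117710758, had 11 copies in SCC1 and 3 in SCC2. Hras, the Ras GTPase gene at chr7:141189934-141194019, had 4 copies in SCC1 in a gain of 1.5 Mb and was unlisted in SCC2. Nras, another Ras gene, had 3 copies in both tumours. No listed gene was gained in 1 tumour and lost in the other.

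**Figure D3:**
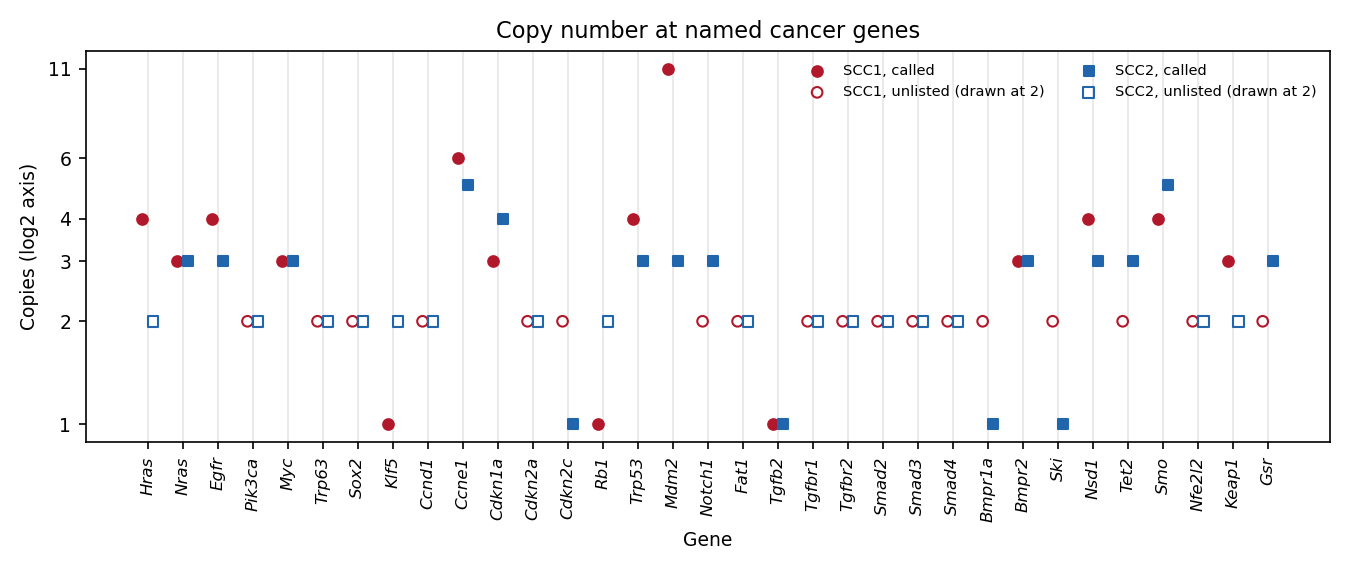
Copies of 33 named cancer genes in SCC1 (red circles) and SCC2 (blue squares) on a log2 axis, with open symbols at 2 for unlisted genes. Mdm2 stands apart at 11 copies in SCC1 against 3 in SCC2, and Hras is called in SCC1 only.

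Ccne1, which encodes cyclin E1 and drives entry into S phase, lay in a narrow gain at the edge of a loss in SCC1 and between a pair of losses in SCC2. The window chr7:38100001-38200000 was called at 6 copies in SCC1 and 5 in SCC2. It was bordered on the left by a loss to 1 copy in both tumours, of 2.3 Mb in SCC1 and 2.4 Mb in SCC2. On the right SCC2 had a further loss of 2.7 Mb and SCC1 had no call. Ccne1 spans chr7:38097984-38107490, so it crossed the edge between the loss and the gain.

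The promoters of Mdm2, Ccne1 and Hras are shown because these genes lay in the narrowest or highest gains that hold listed genes. Each window runs from 250 bases before to 50 bases after a start that RefSeq annotates on GRCm38.p6, and all 3 lie on the minus strand. For Hras that start lies a few bases inside the outer end of the gene given above. Capitals mark GC boxes, the letters GGGCGG or their reverse CCGCCC, searched on both strands. The first lies at chr10:117710709-117711008, the second at chr7:38107441-38107740 and the third at chr7:141193955-141194254.
Mdm2: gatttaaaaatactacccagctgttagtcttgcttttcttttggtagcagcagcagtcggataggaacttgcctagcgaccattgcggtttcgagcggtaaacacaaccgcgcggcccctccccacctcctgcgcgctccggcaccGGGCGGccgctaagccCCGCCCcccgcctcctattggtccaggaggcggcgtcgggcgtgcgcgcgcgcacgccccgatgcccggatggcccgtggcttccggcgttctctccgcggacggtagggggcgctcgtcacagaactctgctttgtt
Ccne1: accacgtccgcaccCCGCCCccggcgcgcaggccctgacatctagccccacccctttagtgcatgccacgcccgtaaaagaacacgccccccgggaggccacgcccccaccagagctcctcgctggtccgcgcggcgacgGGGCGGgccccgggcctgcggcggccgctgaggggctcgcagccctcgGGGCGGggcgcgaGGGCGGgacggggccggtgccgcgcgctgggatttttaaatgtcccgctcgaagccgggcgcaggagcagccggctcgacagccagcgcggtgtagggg
Hras: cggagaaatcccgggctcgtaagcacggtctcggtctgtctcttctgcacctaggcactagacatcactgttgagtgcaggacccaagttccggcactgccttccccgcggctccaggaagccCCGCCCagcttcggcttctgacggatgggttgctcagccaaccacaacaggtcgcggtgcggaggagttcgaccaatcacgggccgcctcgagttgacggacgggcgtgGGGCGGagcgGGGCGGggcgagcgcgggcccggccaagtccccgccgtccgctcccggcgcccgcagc
The Mdm2 window holds 2 GC boxes and 64.7% G and C, the Ccne1 window 4 boxes and 76.0%, and the Hras window 3 boxes and 69.0%. Of the 31396 autosomal promoter windows of the same length, 36.0% hold at least 1 GC box, and the median G and C content is 53%. A merged accessible peak overlapped each of the 3 windows. The matches describe the letters and do not show that a factor binds.

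In the cell cycle and p53 list, 10 of 22 genes (45.5%) were gained in SCC1 and 9 (40.9%) in SCC2, with 1 loss in each. The gained shares of all protein-coding genes were 44.5% and 42.9%. Trp53, which encodes p53, was gained in both tumours, at 4 copies in SCC1 and 3 in SCC2. Rb1, which encodes the retinoblastoma protein that restrains E2F factors, had 1 copy in SCC1 and was unlisted in SCC2. It lies at chr14:73192858-73325951, within the 60.1 Mb loss. Cdkn2c, an inhibitor of CDK4 and CDK6, was unlisted in SCC1 and had 1 copy in SCC2 in a loss of 6.5 Mb. Cdkn1a, the p21 inhibitor, had 3 copies in SCC1 and 4 in SCC2. Ccnd1, which encodes cyclin D1, and Cdkn2a, which encodes the p16 and p19 inhibitors, were unlisted in both tumours, as were Ccnd2 and Ccna2, while Ccnd3 had 3 copies in both.

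Among 20 Ras and receptor kinase genes, 9 (45%) were gained in SCC1 and 8 (40%) in SCC2, against 44.5% and 42.9% of all protein-coding genes. None was lost, against 1.56% and 2.20% of all protein-coding genes. Egfr, the epidermal growth factor receptor, and its relative Erbb2 each had 4 copies in SCC1 and 3 in SCC2, on chromosome 11. Erbb3, a partner of Erbb2, had 4 copies in both. Met, the hepatocyte growth factor receptor, was gained in SCC2 only, at 3 copies. Of 12 PI3K and mTOR genes, 5 (41.7%) were gained in each tumour. Pik3ca, the catalytic subunit, was unlisted in both. Of 11 DNA damage genes, 4 (36.4%) were gained in SCC1 and 6 (54.5%) in SCC2.

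The squamous lineage factors Trp63 and Sox2 were unlisted in both tumours. Myc had 3 copies in both. Klf5, a transcription factor of epithelial progenitors, had 1 copy in SCC1, in the same loss as Rb1, and was unlisted in SCC2. Of the related Myc family genes, Mycn and Mycl were unlisted in both. Foxm1, a transcription factor of mitosis, had 3 copies in SCC1 and was unlisted in SCC2. In this list of 13 genes, 6 (46.2%) were gained in SCC1 and 5 (38.5%) in SCC2, against 44.5% and 42.9% of all protein-coding genes. Of 10 Notch and squamous suppressor genes, 2 (20%) were gained in SCC1 and 3 (30%) in SCC2. None was lost, against 1.56% and 2.20% of all protein-coding genes. Notch1, a receptor that drives keratinocyte differentiation, was unlisted in SCC1 and had 3 copies in SCC2, and Fat1, a cadherin, was unlisted in both.

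Of the 18 TGF-β pathway genes, 12 (66.7%) were unlisted in both tumours, against 44.7% of all protein-coding genes and 66 of the 141 listed cancer genes (46.8%). They included the receptors Tgfbr1 and Tgfbr2 and the signal carriers Smad2, Smad3 and Smad4. The ligand gene Tgfb2 had 1 copy in both tumours, in losses of 5.5 Mb in SCC1 and 5.2 Mb in SCC2. The BMP receptor gene Bmpr1a and Ski, a repressor of Smad signalling, had 1 copy in SCC2 and were unlisted in SCC1. In all, 3 genes were gained in each tumour, 1 was lost in SCC1 and 3 were lost in SCC2. The gains were 16.7% of the list, against 44.5% of all protein-coding genes in SCC1 and 42.9% in SCC2. The losses were 5.56% in SCC1 against 1.56%, and 16.7% in SCC2 against 2.20%. With 18 genes these departures were not tested. The BMP receptor gene Bmpr2 had 3 copies in both, in gains of 0.8 Mb in SCC1 and 0.6 Mb in SCC2.

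A few more listed genes lay in short regions. Nsd1, a histone H3 methyltransferase, had 4 copies in SCC1 and 3 in SCC2 in the same region of 0.8 Mb. Tet2, a 5-methylcytosine oxidase, had 3 copies in SCC2 only, in a gain of 0.4 Mb. Both belong to 13 chromatin regulators, of which 8 (61.5%) were gained in each tumour. Smo, the Hedgehog signal transducer, had 4 copies in SCC1 and 5 in SCC2, where its region was 0.9 Mb long. It was 1 of 12 Wnt, Hedgehog and Hippo genes, of which 9 (75.0%) were gained in SCC1 and 7 (58.3%) in SCC2. All protein-coding genes stood at 44.5% and 42.9%. Gsr, glutathione reductase, had 3 copies in SCC2 only, in a gain of 0.9 Mb. In its list of 10 NRF2 and glutathione genes, 4 (40%) were gained in each tumour. Keap1, the inhibitor of NRF2, had 3 copies in SCC1 and was unlisted in SCC2, and Nfe2l2, which encodes NRF2, was unlisted in both.

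Mutated sites gave a second readout over the same positions. They had been called by the authors in RNA of sorted tumour cells grown as allografts, so they count transcripts and come from other cells than the cultured input. Most were common to both tumours. Of the sites with at least 10 reads in proliferative cells, 320 of 485 in SCC1 and 330 of 399 in SCC2 were listed in both. Why they were common was not tested, and no normal DNA was analysed here. Among sites with at least 20 reads in proliferative cells, the median share of reads with the mutant base was 43% at 159 unlisted sites of SCC1, 40% at 141 sites with 3 copies and 46.5% at 60 sites with 4 or more. In SCC2 the medians were 43% at 133 unlisted sites, 45.5% at 126 sites with 3 copies and 50.5% at 14 sites with 4 or more. The middle ranges overlapped in each tumour: in SCC1 the quartiles were 26.5% and 55% at unlisted sites and 25% and 70% at 3 copies. Losses held too few sites to compare, 2 in SCC1 and 5 in SCC2.

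Sites where nearly every read was mutant clustered on a few chromosomes. A share of 90% or more, a limit chosen after the values were seen, was found at 24 of 141 sites with 3 copies in SCC1 (17%, exact 95% interval 11.2 to 24.3) and at 9 of 159 unlisted sites (5.66%, 2.62 to 10.5). In SCC2 it was found at 14 of 126 sites with 3 copies (11.1%, 6.21 to 17.9) and at 4 of 133 unlisted sites (3.01%, 0.825 to 7.52). Chromosome 17 held 18 of the 41 such sites of SCC1 and 14 of the 20 of SCC2. Many of these lie in the H2 genes of class I antigen presentation, whose near-identical copies can share reads, so they are uncertain. Without chromosome 17 the shares were 6 of 90 sites with 3 copies (6.67%), 8 of 58 with 4 or more (13.8%, 6.15 to 25.4) and 9 of 156 unlisted (5.77%, 2.67 to 10.7) in SCC1. In SCC2 they were 1 of 100 (1.00%), 1 of 13 (7.69%, 0.195 to 36.0) and 4 of 133 (3.01%). The intervals of the classes overlapped in each tumour. Without chromosomes 10 and 17 the class of 4 or more copies was at 2 of 48 sites in SCC1 (4.17%) and 1 of 8 in SCC2 (12.5%). The intervals cover counting error only and treat sites as independent, which neighbours on a chromosome are not.

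Chromosomes 10 and 18 had the largest median differences in mutant share between the tumours. On chromosome 5, 8 of 11 sites differed by 20 points or more, but the sites went both ways, 5 higher in SCC1 and 6 in SCC2. On chromosome 10, over 8 sites with at least 20 reads in both tumours, the median was 98.5% in SCC1 (range 36 to 100) and 70% in SCC2 (46 to 86). Of the 16 chromosome 10 sites of SCC1, 9 reached 90%, and none of the 14 in SCC2 did. All 9 were listed in SCC2 too. Each had a lower share there, which choosing sites for a high share in SCC1 favours, so this adds no separate support. At Ptges3, which encodes a co-chaperone of HSP90, the share was 98% of 242 reads in SCC1 and 71% of 254 reads in SCC2, with 4 copies in both. At Man1a, a mannosidase of glycan trimming, it was 99% of 126 reads and 62% of 130, with 3 copies in both. Equal copy numbers thus went with different mutant shares. In quiescent cells of SCC1, a separate library of the same tumour, 8 of the 9 sites were listed and all 8 were at 97% or more.

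On chromosome 18 the 5 sites with at least 20 reads in both tumours had a median of 100% in SCC1 (range 93 to 100) and 28% in SCC2 (23 to 39), with no overlap. Phax, an export factor of small nuclear RNA, was at 100% of 70 reads in SCC1 and 28% of 53 in SCC2. Lmnb1, which encodes lamin B1, was at 100% of 36 reads and 35% of 40. Both sites were unlisted in the copy number of both tumours. At Wac the shares were 100% and 24%, with 4 copies in SCC1 and 3 in SCC2. Over the whole set of 228 sites read in both tumours the median difference, SCC1 minus SCC2, was 0 percentage points. It was 1 point at the 55 sites with more copies in SCC1 and -1 point at the 18 with more in SCC2. These chromosomes were singled out after their values were seen.

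**Figure D4:**
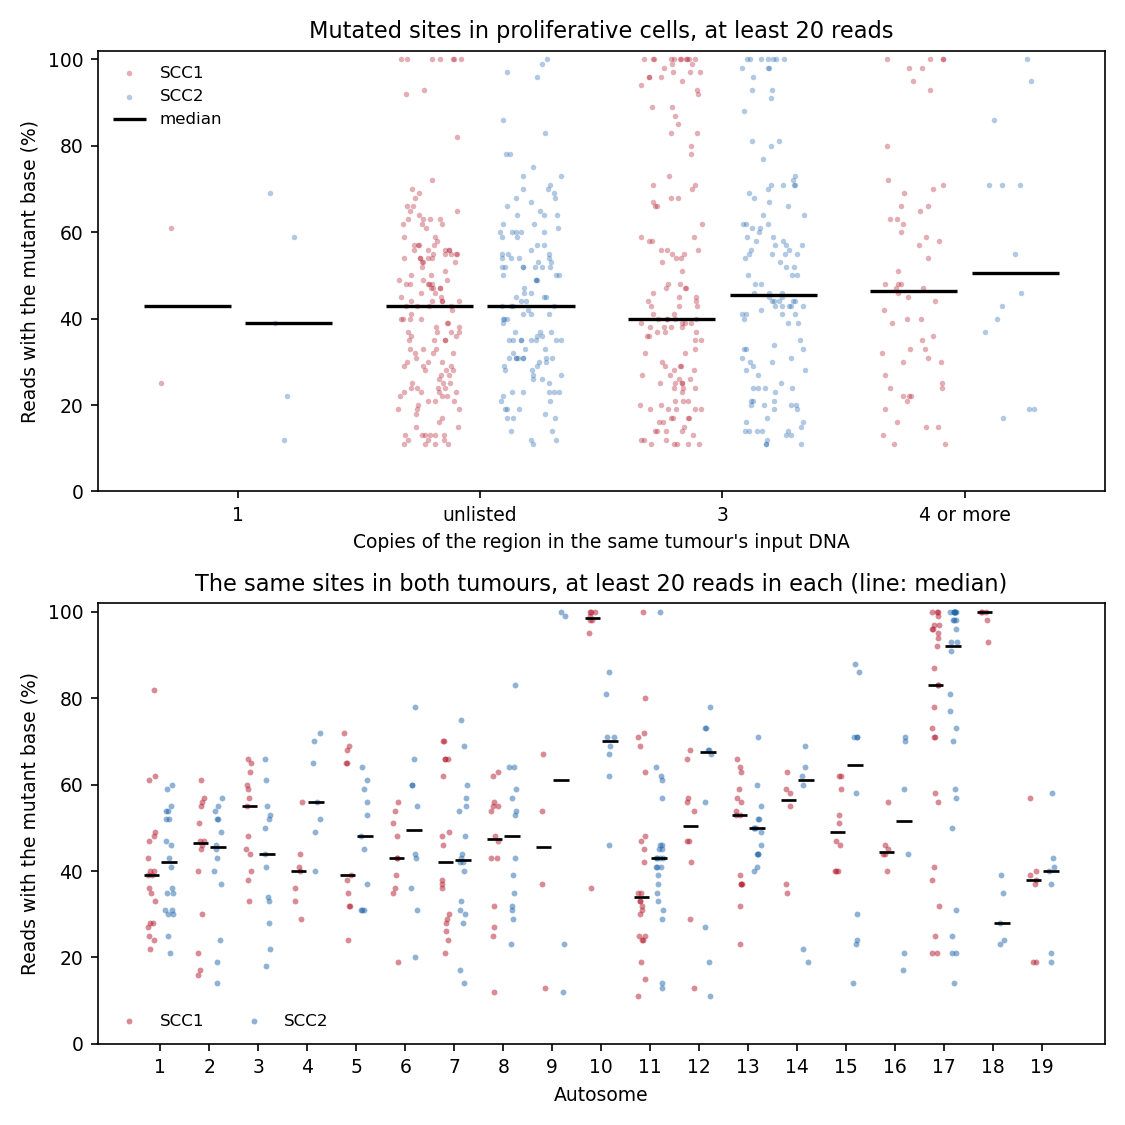
Percent of RNA reads with the mutant base in proliferative cells of SCC1 (red) and SCC2 (blue); each point is a site with at least 20 reads and each line a median. The upper panel groups sites by copies in the same tumour and the lower panel shows sites read in both tumours by autosome, where SCC1 stands at medians of 98.5% on chromosome 10 and 100% on chromosome 18 and SCC2 at 70% and 28%.

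At the listed cancer genes, the mutated Hras site at chr7:141192550 had 62% mutant of 561 reads in SCC1 (exact 95% interval 57.9 to 66.1) and 57% of 405 in SCC2 (52.1 to 61.9), and the intervals overlapped. SCC1 had 4 copies there and SCC2 was unlisted. Trp53 had a pair of mutated sites in both tumours. At chr11:69589630 the share was 63% of 294 reads in SCC1 (57.1 to 68.5) and 62% of 189 in SCC2 (54.6 to 68.9). At chr11:69588379 it was 32% of 186 (25.6 to 39.5) and 41% of 113 (31.6 to 50.4). The keratinocyte kinase gene Ripk4 had 56% of 50 reads in SCC1, unlisted, and 71% of 38 in SCC2, with 3 copies. These intervals overlapped (41.3 to 70.0 and 54.1 to 84.6). Gclm, of the NRF2 and glutathione list, was unlisted in both tumours. Its share was 45% of 1196 reads in SCC1 (42.14 to 47.85) and 22% of 469 in SCC2 (18.30 to 25.99), without overlap. In quiescent cells the Gclm shares were close, at 42% of 1504 reads in SCC1 and 43% of 54 in SCC2.

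Gained sequence was denser in genes than the rest. Sequence gained in both tumours held 14.2 protein-coding genes per Mb, against 6.55 where neither tumour had a call. Gains of SCC1 alone held 9.12 and gains of SCC2 alone 8.29. Sequence lost in both held 3.38 and that lost in SCC1 alone 3.51, while losses of SCC2 alone held 7.09. Accessible peaks of the merged list fell at 26.6 per Mb where both tumours were gained, 23.7 with no call and 14.5 where both were lost. Short gains had more, at 38.6 peaks per Mb in SCC1 and 37.5 in SCC2, against 25.8 and 26.5 in gains of 1 Mb or more. The median G and C content of promoters was 55.3% in gains of both tumours and 52.0% with no call, and 57.7% in the short gains of SCC1. It was 52.0% in gains of SCC1 alone and in losses of SCC2 alone, 52.7% in gains of SCC2 alone and 49.0% in losses of SCC1 alone. Base composition and gene density differed between some of these classes and not others, and their part in the calls was not tested. Peaks were pooled over libraries, so they cannot show a difference in accessibility between the tumours.

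**Figure D5:**
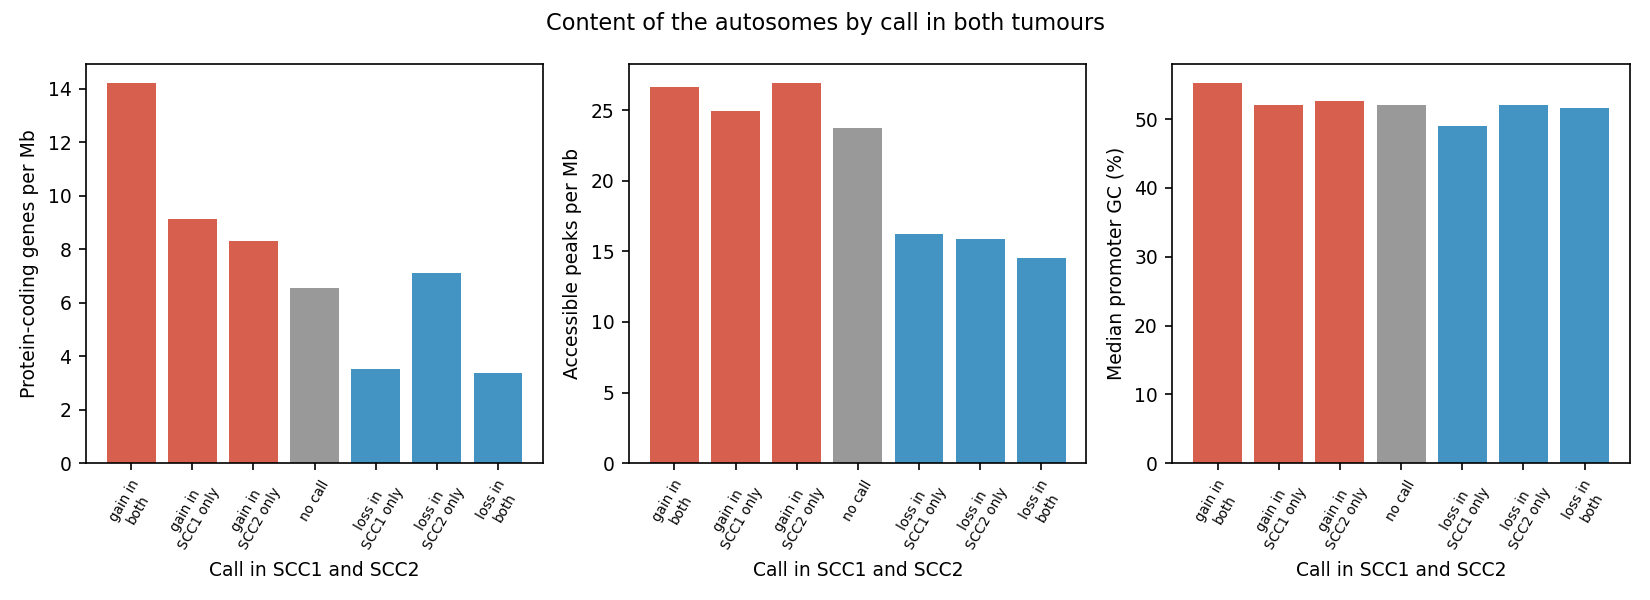
Protein-coding genes per Mb, merged accessible peaks per Mb and median promoter G and C content (percent) of the autosomes, by the calls in SCC1 and SCC2; bars are single values with no error. Gains in both tumours hold 14.2 genes per Mb against 6.55 with no call, and losses in both hold 14.5 peaks per Mb against 23.7.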

How the data were processed

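Input DNA reads of both tumours had been aligned to mm10 with Bowtie and handled with Picard 1.88, per the submitters' processing notes; how copy number, mutations and peaks were called was not given in sources used here. The authors deposited a whole copy number and p-values per region, and, for mutated sites, the read count and, as a percent, the share of mutant reads, from RNA aligned with TopHat2 2.0.9 per the same notes. Regions were compared base by base over 2462 Mb of autosomes in Python 3.11.15 with numpy 2.4.6, pandas 2.3.3, scipy 1.17.1 and matplotlib 3.10.9; starts were printed counting from 1. The interval code was tested on simulated data. Genes came from RefSeq on GRCm38.p6: all 141 listed symbols matched, and of 125 pairs of gene and region the authors' own annotation also lists 123. Genes named were those in short or high-level regions, with 1 copy, or differing by 2 copies or more, plus a fixed set of skin cancer genes and at most 3 others per list. Genes outside the lists, and Ripk4 and Gclm, were named after their values were seen. The members and lists were chosen with earlier results of these data known. Unlisted positions carry no call. Alternatives are given in the closing section. Chromosome X, expression ratios and Smad2/3 sites entered no comparison. Some listed genes are counted but not reported here by name.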

Additional observations from a re-analysis of the deposited data

Results flagged for a closer look

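Opposite calls over the same positions were found at 3 places, and the differences were not tested. At chr4:11800001-14100000, over 2.3 Mb with Runx1t1, a corepressor gene, and Cdh17, a cadherin gene, SCC1 had 3 copies and SCC2 had 1. At chr7:35700001-35800000 and chr9:30900001-31000000 the overlap was 0.1 Mb each, and in both cases it came from edges that differed by 1 window.

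Chromosome X was outside the autosomal comparison. Its calls were gains to 2 copies at chrX:1-12600000 and 3 copies at chrX:12600001-23800000 in SCC1, and to 2 copies at chrX:88400001-90100000 in SCC2. The window chrX:143400001-143500000 was called at 12 copies in SCC1 and 17 in SCC2.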

How the results depend on the processing

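The alternatives gave 64 values for 23 results. A reversal was looked for only in the mean difference, which kept its sign. Of the 64, 58 stayed within 1.5 times a count or extent, or within the exact 95% interval of a share or median. These intervals treat regions and sites of 1 library as independent. Most of the extent lay in regions of 1 Mb or more, so leaving out short regions could move it little. The mean difference of 0.287 copies, SCC1 minus SCC2, was 0.0668 with unlisted positions at 2 copies, 0.163 without chromosome 11, 0.295 on regions with both of the authors' p-values under 0.05, and 0.251 without regions that open a chromosome, an alternative chosen after seeing the data. The share of short SCC1 regions with the same call in SCC2 was 78.9% with the length split at 0.5 Mb, and that of long SCC2 regions was 75.6% with the split at 5 Mb; both use other regions by construction. Other alternatives moved no count of cancer genes by over 1.5 times. No paired analysis was possible because each tumour had 1 input library. The depth of the input reads is unknown, so precision of single copy numbers cannot be given.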
